A study of Mus musculus with 6 samples.

Results

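Neurotrophin signalling genes were examined in the cerebral cortex of fetal mice whose dams had received bisphenol A (BPA, a plastic monomer with weak estrogenic activity) or vehicle. The members were the rows of the count table whose symbol was that of a neurotrophin ligand (Bdnf, Ntf3), a Trk receptor (Ntrk2, Ntrk3), the p75 receptor (Ngfr) or a sortilin family receptor (Sort1, Sorcs1, Sorcs3), 8 of 45583 rows. The study asked whether prenatal BPA raises the risk of autism spectrum disorder in males, with aromatase explored as a possible mechanism. RNA of the fetal cortex was among its mouse assays. The vehicle group held 3 male fetuses from dams given peanut oil, and the BPA group held 3 male fetuses from dams given BPA at 50 µg/kg, both from GD10.5 to GD14.5 (gestational day), and cortex was collected at GD15.5. All 6 fetuses were of the Cyp19-EGFP strain, a reporter line with an added Cyp19a1 clone in which the green fluorescent protein gene sits before the aromatase start codon, and all were labelled wild type and Sry positive. The study's methods give ethanol and peanut oil as the carrier and subcutaneous injection as the route. Each fetus gave 1 library, and the labels name fetuses but not litters, so that the spread between libraries includes fetuses that may have shared a dam.

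Neurotrophins are secreted growth factors that are made as longer precursors and cut to mature dimers. Mature brain-derived neurotrophic factor, the product of Bdnf, acts mainly on TrkB (Ntrk2), and mature neurotrophin-3, the product of Ntf3, mainly on TrkC (Ntrk3), both of which are receptor tyrosine kinases that promote survival, differentiation and neurite growth. The uncut precursors bind p75 together with sortilin (Sort1), and sortilin family proteins also sort neurotrophins and Trk receptors inside the cell. In the fetal cortex TrkB and TrkC are carried by progenitors and young neurons, while Bdnf transcription is low before birth and is driven later by neuronal activity through CREB.

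The study examined methylation of a CREB-binding region in a BDNF promoter in human cord blood, and the mouse Bdnf promoter windows were searched for the core letters of a CREB site for that reason. Bdnf (ENSMUSG00000048482.14) lies on the plus strand of GRCm38 chromosome 2, from 109674700 to 109727007, and has 11 annotated transcripts that start at alternative first exons. RefSeq (GRCm38.p6) gave 7 Bdnf promoter windows, each of 250 bases before and 50 bases after a start. The letters CGTCA, the core of a cyclic AMP response element (the sequence that CREB binds), were searched on both strands and are in capitals. They were found in 1 of the 7 windows, the one at the start of transcript Bdnf-209 (chr2:109692186-109692485, plus strand), with 30 bases between them and the start. This window is printed because it holds these letters, and it was not aligned with the human region.

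Bdnf promoter at Bdnf-209: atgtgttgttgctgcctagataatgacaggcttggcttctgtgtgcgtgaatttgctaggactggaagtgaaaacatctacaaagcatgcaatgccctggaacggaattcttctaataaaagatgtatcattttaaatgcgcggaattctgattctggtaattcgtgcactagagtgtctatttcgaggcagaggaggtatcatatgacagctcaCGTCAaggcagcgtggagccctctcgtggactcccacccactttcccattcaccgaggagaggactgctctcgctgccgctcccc

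The same letters occur in 20.8% of all 32851 RefSeq promoter windows, and the longer form TCACGTCA, which contains them and was read off this Bdnf window, occurs in 0.441%. The 6 windows held for Ntf3, Ntrk2, Ngfr, Sorcs1 and Sorcs3 did not hold CGTCA on either strand. A match is a description of letters. The counts were made per gene, so that transcripts from this start and from the other Bdnf starts could not be told apart.

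Libraries ranged from 3444601 counts (BPA replicate 3) to 7180835 counts (vehicle replicate 2), and 13741 genes had enough counts to be tested. The 7 markers of cortical neurons summed to between 7233 and 7690 CPM (read counts relative to library size, after TMM normalization) in the 6 libraries, and their groups overlapped. Markers of the ventral telencephalon and of interneurons summed over 9 genes to between 1003 and 1148 CPM in vehicle and between 881 and 957 CPM in BPA. Markers of Cajal-Retzius cells summed over 6 genes to between 546 and 606 CPM in vehicle and between 607 and 704 CPM in BPA. Choroid plexus markers were high in vehicle replicate 2 (210.5 CPM) and BPA replicate 2 (332 CPM) and between 10.1 and 15.4 CPM in the other 4 libraries. Markers of meninges and pericytes were highest in vehicle replicate 3 (182.8 CPM, against 110.5 to 160.4 CPM in the other libraries). Erythroid markers were also highest there (588.3 CPM, against 262.7 to 434.3 CPM). In bulk tissue, fewer cells of a type and less RNA per cell cannot be told apart.

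The 8 genes spanned a wide range of levels. Between genes, levels were compared as CPM per kb of exon, and the exonic length was the union of all annotated exons. Sort1 was the most abundant member, from 45.0 to 51.8 CPM per kb over the 6 libraries. Ntrk2 followed at 9.86 to 12.6 CPM per kb and Ngfr at 4.75 to 5.61 CPM per kb, and none of these ranges met. Below them came Sorcs1 (2.73 to 3.94 CPM per kb), Sorcs3 (2.05 to 2.72 CPM per kb) and Ntrk3 (1.96 to 2.95 CPM per kb), and the range of Ntrk3 overlapped those of Sorcs1 and Sorcs3. The ligands were lowest, with Ntf3 at 0.340 to 1.27 CPM per kb and Bdnf at 0.227 to 0.571 CPM per kb, and their ranges overlapped. Ntrk2 and Ntrk3 have long exon unions (19292 and 30170 bases). The longest transcript was also used as the length, a choice made after seeing the data. The median level of Ntrk2 was then 24.3 instead of 11.0 CPM per kb. That of Ntrk3 was 3.41 instead of 2.23 CPM per kb, above that of Sorcs3 (3.15 CPM per kb). The order of Ntrk3 and Sorcs3 therefore depends on the length used.

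**Figure D1:**
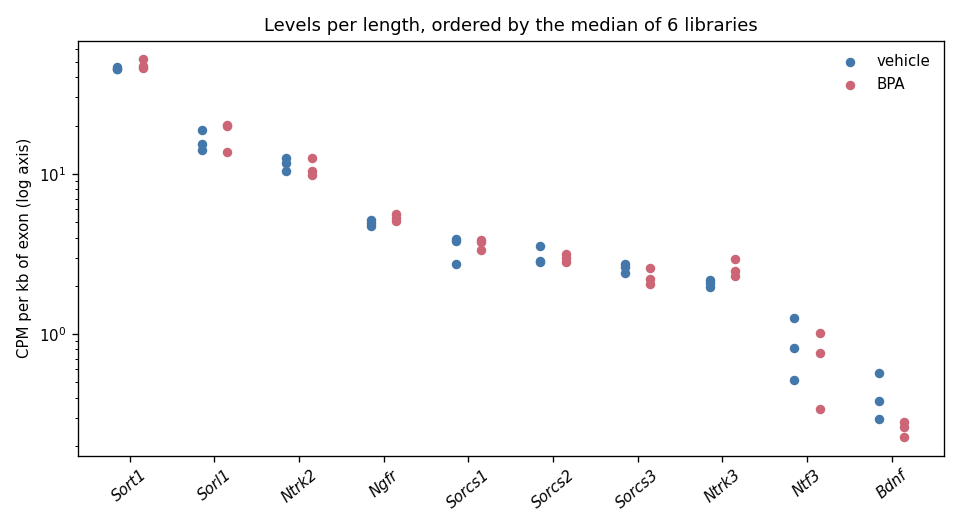
Level of each gene as CPM per kb of exon on a log axis, 1 point per library, vehicle in blue and BPA in red, for members and for Sorl1 and Sorcs2 of the same families. Sort1 lies highest at 45.0 to 51.8 and Bdnf lowest among the members at 0.227 to 0.571.

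Of the other genes of the same families, Sorl1, a sortilin family receptor, was at 13.6 to 20.1 CPM per kb, and Sorcs2, another family member, at 2.80 to 3.52 CPM per kb. By exon union Sorl1 lay above Ntrk2. By the longest transcript it lay below, at 14.39 to 21.18 CPM per kb against 21.75 to 27.76 CPM per kb for Ntrk2. The ligand gene Ntf5 (neurotrophin-4/5) had from 0 to 2 counts per library. The limit that 0 counts allow was 0.418 CPM in vehicle replicate 2, the deepest library, and 0.871 CPM in BPA replicate 3 (counting error only). For Ntf5 this depth could not show a difference between the groups.

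Of the 8 members, 7 passed the filter on low counts and were tested, and by edgeR's quasi-likelihood test 0 had an adjusted p under 0.1, as for all 13741 genes (0% called). The count of members past this threshold was also 0 with DESeq2, limma-voom and edgeR's exact and likelihood ratio tests, which called 3, 0, 2 and 4 genes of the whole table. At an unadjusted p under 0.05 there was 1 member, Ntrk3, against 2.20% of all genes tested. It was higher in BPA, as were 1.02% of all genes tested at that p, and 0 members were lower, against 1.18%. The vehicle and BPA libraries did not overlap for 2 of the 7, Bdnf (lower in BPA) and Ntrk3 (higher in BPA), against 6.75% of all genes tested, of which 3.56% were lower and 3.19% higher in BPA. The members were chosen with earlier results of these data known, and no test was made over them. Their median log2 fold change (BPA minus vehicle) was 0.064, and that of all genes tested was 0.0016.

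**Figure D2:**
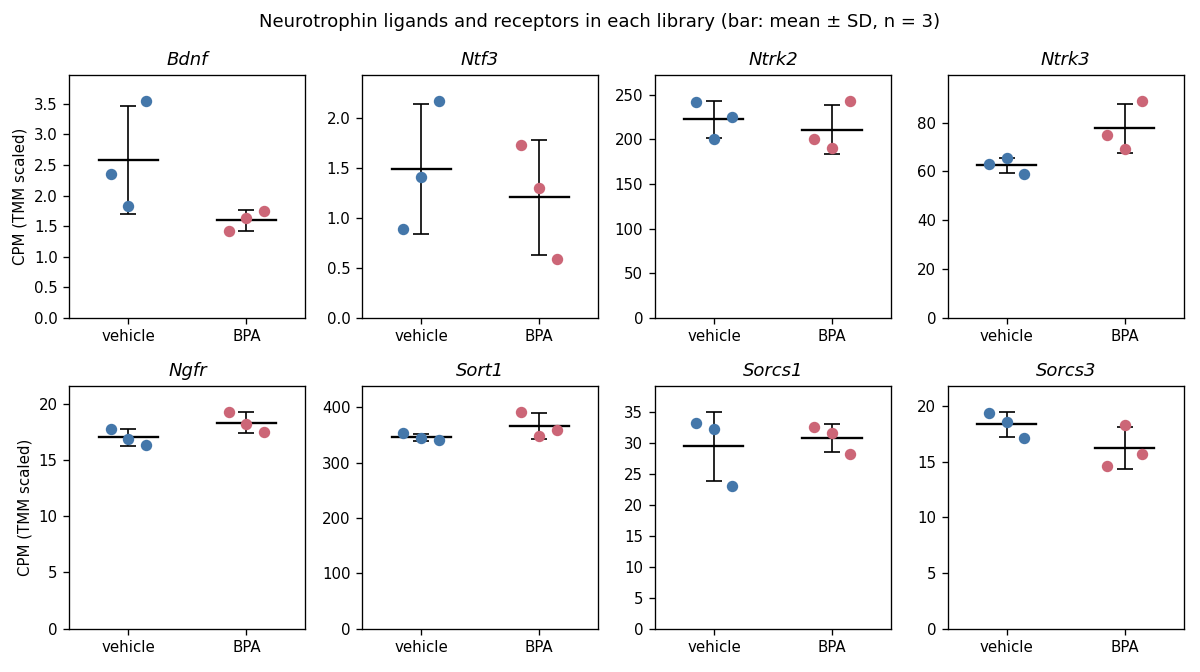
TMM-scaled CPM of the 8 members in each library, with vehicle points in blue and BPA points in red, the wide black bar at the group mean and the capped line at ± 1 SD (n = 3). Every axis starts at 0. The groups are apart for Bdnf and Ntrk3 and overlap for the other 6 genes.

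Bdnf, the TrkB ligand, was at 2.35, 1.83 and 3.55 CPM in vehicle replicates 1 to 3 and at 1.41, 1.62 and 1.75 CPM in BPA replicates 1 to 3. All BPA libraries lay below all vehicle libraries, but the lowest vehicle and the highest BPA value were close, and vehicle replicate 3 was well above the other vehicle libraries. Vehicle replicate 3 also had the highest sums of meninges and pericyte markers and of erythroid markers, whose part in its Bdnf value was not tested. The vehicle mean was 2.58 ± 0.882 CPM (SD, n = 3) and the BPA mean 1.60 ± 0.170 CPM (SD, n = 3). The log2 fold change was -0.67 (SE 0.376, 95% interval -1.46 to 0.13), and the edgeR p was 0.0956 before and 0.9998 after Benjamini-Hochberg adjustment.

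These Bdnf levels rested on few reads, with 47 counts in 19081719 over the vehicle libraries and 25 counts in 15963412 over the BPA libraries. The exact 95% Poisson interval, which covers counting error only, ran from 2.10 to 5.61 CPM in vehicle replicate 3 and from 0.642 to 3.81 CPM in BPA replicate 3. The intervals of all 6 libraries overlapped one another. The filter asked for 1.60 CPM before TMM scaling in 3 libraries, and Bdnf met it in 3 vehicle and 2 BPA libraries. Without vehicle replicate 3 its log2 fold change was -0.41 (unadjusted p = 0.352), and without vehicle replicate 2 it was -0.87 (unadjusted p = 0.0484), by the same edgeR test. Of the 50-base words in Bdnf transcripts, 12.7% occur in another gene on either strand, mostly in the antisense gene Gm45346, whose exons overlap those of Bdnf over 896 bases. Whether the counting used strand is not given in the sources used here, so that reads of the pair may not have been told apart.

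Ntf3 (ENSMUSG00000049107.13, chromosome 6, 126101412 to 126166910, minus strand), the TrkC ligand, was at 0.883, 1.41 and 2.17 CPM in vehicle and at 1.73, 1.30 and 0.584 CPM in BPA. The groups overlapped, and both held a library under 1 CPM. With 2 to 11 counts per library Ntf3 did not pass the filter. In the edgeR fit without a filter its log2 fold change was -0.15 (SE 0.494, 95% interval -1.12 to 0.81), an interval that leaves changes in either direction undetected at this depth.

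Ntrk3 (ENSMUSG00000059146.12, chromosome 7, 78175959 to 78738012, minus strand), which encodes TrkC, was at 63.0, 65.5 and 59.2 CPM in vehicle and at 74.9, 69.1 and 89.0 CPM in BPA. All BPA libraries lay above all vehicle libraries, and BPA replicate 3, the library with the fewest counts, was highest. The vehicle mean was 62.5 ± 3.17 CPM (SD, n = 3) and the BPA mean 77.7 ± 10.2 CPM (SD, n = 3). The log2 fold change was 0.30 (SE 0.118, 95% interval 0.052 to 0.55), and the edgeR p was 0.0212 before and 0.9998 after adjustment. A smaller unadjusted p was obtained for 90 genes, 0.655% of those tested.

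The direction of Ntrk3 was the same in each fit that left out 1 library, with log2 fold changes from 0.20 to 0.38. It was 0.34 without vehicle replicate 2 and 0.38 without BPA replicate 2, the libraries with high choroid plexus markers. Each of these fits kept the other such library, so that the part of choroid plexus tissue was not tested. The unadjusted p of Ntrk3 rose to 0.122 without BPA replicate 3 and to 0.0795 without vehicle replicate 3, by the same edgeR test. With all libraries thinned to the smallest total, its log2 fold change was 0.34 (unadjusted p = 0.0129). Ntrk3 had from 300 to 477 counts per library, and 0.529% of its 50-base words occur in other genes. The sums of the ventral telencephalon markers lay lower in BPA and those of the Cajal-Retzius markers higher, without overlap between the groups. The Cajal-Retzius gap was small, from 606.4 CPM (highest vehicle) to 606.8 CPM (lowest BPA). Within each group the ventral sum was lowest in replicate 3 (1003 CPM in vehicle, 881 CPM in BPA), where Bdnf was highest. The Cajal-Retzius sum ran in the opposite order to Ntrk3 in vehicle and in the same order in BPA. The part of these cells in the values of Ntrk3 and Bdnf was not tested. All 9 ventral markers had negative log2 fold changes, 4 of them with an unadjusted p under 0.05, and 5 of the 6 Cajal-Retzius markers had positive ones, 1 of them (Ebf3) with an unadjusted p under 0.05, and none passed the adjusted threshold. All 4 oligodendrocyte precursor markers also had negative log2 fold changes, 2 of them under that unadjusted p, and their sums overlapped between the groups. Over all genes tested, 1.18% were lower and 1.02% higher in BPA at that unadjusted p. Gene by gene, the groups did not overlap for 7 of the 9 ventral markers and 1 of the 4 oligodendrocyte precursor markers, lower in BPA. They did not overlap for 2 of the 6 Cajal-Retzius markers, higher in BPA. Of all genes tested, 3.56% were lower and 3.19% higher in BPA without overlap. Negative log2 fold changes were found for 6799 of the 13741 genes tested.

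Ntrk2 (ENSMUSG00000055254.15, chromosome 13, 58806569 to 59133970, plus strand), which encodes TrkB in full-length and truncated forms that gene counts do not separate, was at 242, 200.3 and 225 CPM in vehicle and at 200.4, 190.1 and 243 CPM in BPA. The highest and the lowest of the 6 values were both from the BPA group. Its log2 fold change was -0.080 (SE 0.111, 95% interval -0.32 to 0.15, adjusted p = 0.9998, edgeR).

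The ratio of Ntrk3 to Ntrk2 counts in a library does not depend on how libraries are scaled. It was 0.260, 0.327 and 0.263 in vehicle and 0.374, 0.363 and 0.367 in BPA. The 3 BPA libraries lay close together and above the vehicle libraries, of which replicate 2 was highest. The ratio of Ngfr to Ntrk2 ran from 0.0726 to 0.0843 in vehicle and from 0.0721 to 0.0964 in BPA, and that of Sort1 to Ntrk2 from 1.46 to 1.72 and from 1.48 to 1.96, with overlap in both. The Sort1 to Ngfr ratio varied least relative to its size, from 19.1 to 20.8 over all 6 libraries. These pairs were chosen after the values were seen and were not tested.

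**Figure D3:**
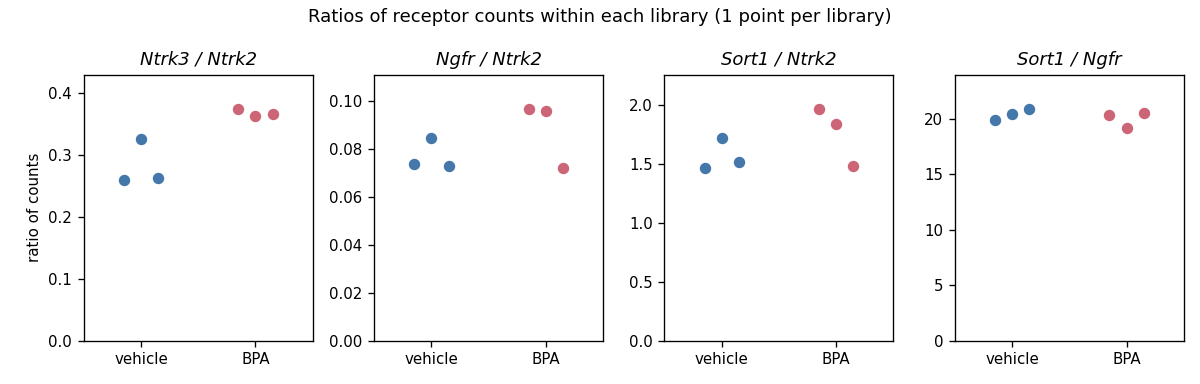
Ratio of the counts of 2 receptor genes within each library, with 1 point per library, vehicle in blue and BPA in red. For Ntrk3 to Ntrk2 the BPA libraries sit between 0.363 and 0.374, above the vehicle libraries at 0.260 to 0.327, and for the other 3 ratios the groups overlap.

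Ngfr (ENSMUSG00000000120.6, chromosome 11, 95568818 to 95587735, minus strand), the p75 receptor that binds all neurotrophins and their precursors, was at 17.8, 16.9 and 16.4 CPM in vehicle and at 19.3, 18.2 and 17.5 CPM in BPA. Of the BPA libraries, only replicate 3 lay within the vehicle range. The log2 fold change was 0.11 (SE 0.146, 95% interval -0.20 to 0.42, adjusted p = 0.9998, edgeR). Markers of the subplate, a layer of early neurons in which p75 is known to be made, summed to between 77.2 and 95.8 CPM in vehicle and between 78.7 and 97.5 CPM in BPA.

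Sort1 (ENSMUSG00000068747.14, chromosome 3, 108284082 to 108361511, plus strand), the co-receptor for the precursors, was at 353, 345 and 341 CPM in vehicle and at 392, 348 and 359 CPM in BPA. BPA replicate 1 was highest, and BPA replicate 2 lay within the vehicle range. With from 1231 to 2498 counts per library, Sort1 had the narrowest interval of the members, with a log2 fold change of 0.082 (SE 0.0901, 95% interval -0.11 to 0.27).

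Sorcs1 and Sorcs3 lie on chromosome 19 and encode sortilin family receptors that sort membrane proteins in neurons. Sorcs1 (ENSMUSG00000043531.16, 50143299 to 50678646, minus strand) was at 33.2, 32.2 and 23.1 CPM in vehicle and at 32.7, 31.7 and 28.3 CPM in BPA. Vehicle replicate 3 stood below the other 5 libraries. Its log2 fold change was 0.064 (SE 0.148, 95% interval -0.25 to 0.38) and turned to -0.078 when that library was left out. Sorcs3 (ENSMUSG00000063434.6, 48206025 to 48805505, plus strand) was at 19.4, 18.6 and 17.2 CPM in vehicle and at 14.6, 18.4 and 15.8 CPM in BPA. BPA replicates 1 and 3 were below all vehicle libraries and BPA replicate 2 was within their range, with a log2 fold change of -0.18 (SE 0.156, 95% interval -0.51 to 0.15). Thinning to equal depth took the value for Sorcs3 to -0.0035. Of the family genes outside the member list, Sorl1 had a log2 fold change of 0.14 (SE 0.141, 95% interval -0.16 to 0.44) and Sorcs2 of -0.021 (SE 0.139, 95% interval -0.32 to 0.27). The edgeR p after adjustment was 0.9998 for each of these 5 sortilin family genes.

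**Figure D4:**
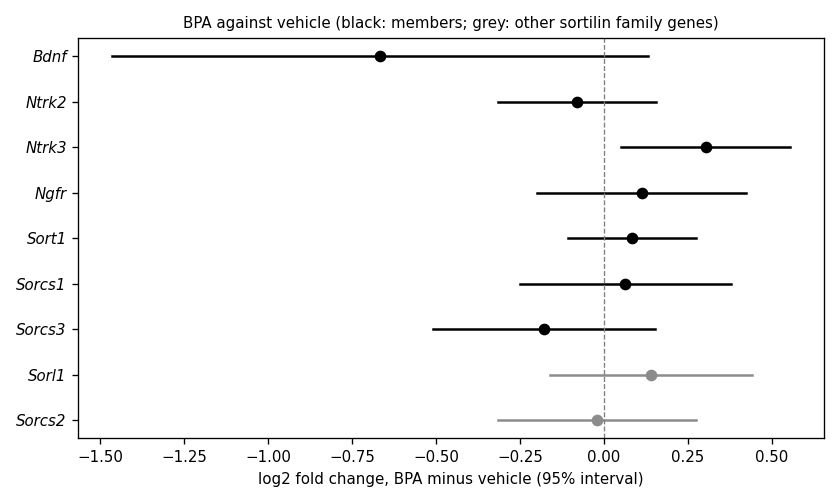
Log2 fold change (BPA minus vehicle) with its 95% interval from edgeR's quasi-likelihood fit, for the 7 members tested in black and for Sorl1 and Sorcs2 in grey, with a dashed line at 0. The interval of Ntrk3 (0.052 to 0.55) lies above 0, those of the other 8 genes include 0, and that of Bdnf (-1.46 to 0.13) is widest.

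The pathway around these receptors was described with 5 further lists. Trk signalling (38 genes listed and tested: adaptors, Ras and MAP kinase genes, PI3 kinase and Akt genes, Plcg1) had 22 genes with positive and 16 with negative log2 fold changes and a median of 0.013. Within it, the PI3 kinase subunit gene Pik3cb had a vehicle mean of 35.2 ± 2.70 CPM (SD, n = 3) and a BPA mean of 40.8 ± 1.06 CPM (SD, n = 3), with groups that did not overlap (log2 fold change 0.20, SE 0.118). Among the adaptor genes, Shc3 had a log2 fold change of -0.26 (SE 0.164) and Frs3 of -0.18 (SE 0.139). The groups did not overlap for Frs3 either, which was lower in BPA. The p75 signalling list (21 of 23 genes tested) had a median of 0.017, and the means of Traf6, an adaptor of p75, were 51.0 ± 1.47 CPM (SD, n = 3) for vehicle and 57.8 ± 0.579 CPM (SD, n = 3) for BPA (log2 fold change 0.18, SE 0.106). Zfp110, whose product binds p75, had a log2 fold change of 0.22 (SE 0.140), and the kinase gene Mapk10 of -0.17 (SE 0.111).

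Of 12 tested genes for precursor processing and release, Hap1, whose product binds huntingtin and takes part in Bdnf transport, had means of 105 ± 7.67 CPM (SD, n = 3) for vehicle and 93.1 ± 1.72 CPM (SD, n = 3) for BPA (log2 fold change -0.18, SE 0.102). Cpe, a carboxypeptidase and sorting receptor for the Bdnf precursor, had a log2 fold change of -0.19 (SE 0.119) and Cadps2, a secretion factor, of -0.26 (SE 0.229). Of the 12 genes, 6 had positive and 6 negative log2 fold changes, and the list median was 0.012. The groups did not overlap for Hap1, which was lower in BPA, and for 1 gene that was higher. The 15 regulators of Bdnf transcription had a median of -0.013 and no gene with groups that did not overlap. Crtc2, a CREB coactivator, was at 0.16 (SE 0.149), the calcium-dependent kinase gene Camk2a at -0.13 (SE 0.129) and Arnt2, a partner of Npas4, at -0.071 (SE 0.103) on the log2 fold change scale. Genes that activity or neurotrophin induces had negative log2 fold changes for 9 of 10 tested genes, with a median of -0.11, and the groups overlapped for each of the 10. Over all genes tested, 6799 of 13741 had negative log2 fold changes. Among the 10 were the transcription factor genes Nr4a1 (-0.21, SE 0.199), Egr1 (-0.39, SE 0.375) and Junb (-0.26, SE 0.263).

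Over all 5 lists, 0 genes passed the adjusted threshold and 0 had an unadjusted p under 0.05, by edgeR's quasi-likelihood test and also by DESeq2, limma-voom and edgeR's exact and likelihood ratio tests. The groups did not overlap for 2 of 38 genes of Trk signalling, 1 of 21 of p75 signalling and 2 of 12 of processing and release. They overlapped for every gene of the other 2 lists. Over all genes tested, 6.75% had groups that did not overlap. The 5 lists, like the members, were chosen with earlier results of these data known.

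**Figure D5:**
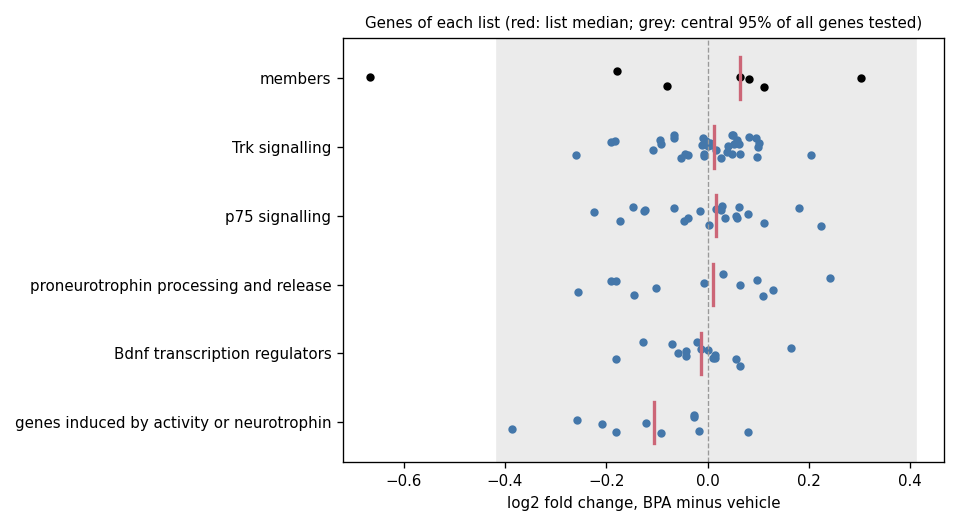
Log2 fold change (BPA minus vehicle) of each tested gene, 1 point per gene, for the members in black and the 5 pathway lists in blue, with the list median in red and the range that holds the central 95% of all genes tested (-0.41 to 0.41) in grey. Bdnf at -0.67 is the single point outside the grey range, and genes are spread vertically at random.

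The genes whose log2 CPM tracked each member most closely over the 6 libraries were picked from those averaging at least 5 CPM. For Bdnf they were Mlycd (Pearson's r = 0.996) and Mydgf (0.994), for Ntrk3 Dhx57 (0.994) and Arsa (0.987), for Ntrk2 Cebpg (0.998) and Pcdhb17 (0.995), and for Ngfr Qpctl (0.987) and Ccp110 (0.978). For Sort1 they were Dnhd1 (0.994) and Slc20a1 (0.990), for Sorcs1 Peli2 (0.984) and Usp54 (0.981), and for Sorcs3 Sulf2 (0.991) and Rgs2 (0.982). These are the highest of at least 11587 values per member, each over 6 points that share library depth and treatment group, and are given as a description. Between members r ran from -0.774 (Bdnf and Ngfr) to 0.855 (Ngfr and Sort1) over 21 pairs.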

How the data were processed

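The members and gene lists were chosen with earlier results of these data known. Total RNA of fetal cortex was, per the study's methods, made into strand-specific libraries and sequenced as single-end reads, and the authors aligned them with TopHat 2.0.14 to GRCm38 and counted reads per gene with featureCounts on GENCODE models. The authors deposited whole-number read counts per gene symbol, not normalized. Strand and multi-mapping options are not given in the sources used here.

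Counts were analysed in R 4.3.3 with edgeR 4.0.16 over all genes that passed filterByExpr (minimum count 10, minimum total 15): TMM scaling, the quasi-likelihood test of BPA against vehicle with all 6 libraries and no covariate, and Benjamini-Hochberg adjustment over the 13741 genes tested at a threshold of 0.1. Standard errors and 95% intervals come from the quasi-likelihood statistic. P-values set the difference between the groups against the spread between these libraries, which was estimated with information shared across genes. A floor of 3 counts was used, and log2 CPM used a prior count of 2. Genes were named by a rule: the members, their families (apart from genes not reported here), the 3 genes of each list with the smallest p and the 2 most similar genes per member. Positions and lengths are from GENCODE M21 (GRCm38). The script was tested on simulated counts. Replicates were numbered in accession order. Alternatives were DESeq2 1.42.0, limma 3.58.1 (voom), other edgeR tests, scalings and filters, thinning, and omission of each library. For rows starting with B, N and S, the share of counts on protein-coding names was highest with the names as deposited.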

Additional observations from a re-analysis of the deposited data

How the results depend on the processing

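The count of members past the adjusted threshold was 0 in each of the 16 alternatives. Over all genes the count moved from 0 to 4 with the likelihood ratio test, 2 with the exact test, 3 with DESeq2 and 19 with no filter, and lay between 0 and 1 when 1 library was left out. None of these calls was a member. The cause was not tested. The fit without a filter took in 23501 genes. An unadjusted p under 0.05 was reached by 302 genes, by 126 under DESeq2, by 620 without a filter and by 194 to 708 when 1 library was left out. Members under that p numbered 1, and from 0 to 2 when 1 library was left out. Scaling moved the median log2 fold change of all genes by less than 0.1. Bdnf, Ntrk2, Ntrk3, Ngfr, Sort1 and Sorcs3 kept their direction in each alternative that tested them, and Bdnf was not tested after thinning, where it failed the filter. When 1 library was left out, the log2 fold change of Sorcs1 ran from -0.078 to 0.15, that of Bdnf from -0.87 to -0.41, Ntrk3 from 0.20 to 0.38, Ntrk2 from -0.19 to -0.012, Ngfr from 0.070 to 0.15, Sort1 from 0.030 to 0.12 and Sorcs3 from -0.29 to -0.097. It was negative for Sorcs1 without vehicle replicate 3 alone. No paired analysis was possible because the labels give no replicate number that the groups share. Depth limits the ligands most, with at most 18 counts per library for Bdnf and 11 for Ntf3.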
